A study of Mus musculus with 6 samples.

Results

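RNA-seq counts from ovaries were read for 7 genes of meiotic double-strand break formation, namely Spo11, Mei1, Mei4, Rec114, Ccdc36, Ankrd31 and Prdm9. They were taken by gene name, and all 7 were found among the 25239 genes of the deposited table. Ovaries were taken at E18.5 from mice of the C57BL/6 strain and gave 6 libraries, 3 labelled WT and 3 labelled Hnrnpl-null. Hnrnpl encodes an RNA-binding protein that regulates splicing, and the title of the series concerns its part in germ cells and in setting up the store of primordial follicles. The titles of the Hnrnpl-null libraries carry the abbreviation CKO and the name of the deposited table carries the word stra8, and the labels explain neither. They name no Cre driver, no deleted exons, and no pooling of animals. No label ties the 3 libraries of a group to different animals, so a p-value here weighs only the spread among libraries, which may be technical.

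Meiotic recombination starts with programmed DNA breaks, made early in prophase I by SPO11, a relative of topoisomerases. In the mouse, breaks need the partner proteins MEI1, MEI4, REC114 and IHO1. ANKRD31, a partner of REC114, shapes when and where breaks form and is needed for those of the pseudoautosomal region, and PRDM9 marks the hotspots where they fall by methylating histones. Female mice pass through this step before birth, and by late gestation most oocytes have moved on to later prophase, when breaks are being repaired.

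Total counts ran from 8949781 to 22401419 per library. Of these, the ribosomal RNA precursor Rn45s made up 83.0% in WT replicate 1, 86.1% in Hnrnpl-null replicate 3 and 18.6% to 36.0% in the other 4, and left 1757572 counts for all other genes in Hnrnpl-null replicate 3. Most counts from 1 to 20 were even (93.4% to 98.4% of them per library). The sources used here do not say whether both mates of a pair were counted. If they were, 1 read pair is worth 2 counts, and a step of 2 counts is 0.625 CPM (on library sizes scaled by TMM) in Hnrnpl-null replicate 3 and 0.0761 to 0.263 CPM in the others. Hnrnpl itself read 172, 169 and 145 CPM in the WT libraries and 166, 173 and 213 CPM in those labelled Hnrnpl-null (ratio 1.13, 95% interval 0.936 to 1.37, edgeR adjusted p = 0.50), so its count over all exons does not check the labels. Oocyte is the cell type on the labels, but markers of other ovarian cells were abundant. Over all 6 libraries the 10 pregranulosa markers summed to 773 to 873 CPM and the 6 stromal markers to 4164 to 7036 CPM, against 88.7 to 201 CPM for the 7 germ cell markers. These are therefore libraries of mixed ovarian cells, in which fewer germ cells and less RNA per germ cell cannot be told apart.

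Mei1 and Ankrd31 fell to 35.2% and 43.7% of WT. Spo11 and Prdm9 stood near 75% of WT and were not called. Rec114 and Ccdc36 stood at 41.5% and 47.4% of WT, near Ankrd31, but with wider intervals, and were not called either. The 95% intervals of all 6 tested genes overlapped one another. Genes were called by edgeR's quasi-likelihood test at an adjusted p below 0.05 over all 14849 genes that passed a filter on low counts. Of the 7 genes, 6 passed the filter, and of these 2 were called lower and 0 higher, where 1.79% of all tested genes were called lower and 2.67% higher. DESeq2 and limma-voom each called the same 2 lower and 0 higher. An unadjusted edgeR p below 0.05 was found for 2 of the 6, beside 2746 of all 14849 tested genes. All 6 fold changes were below 0, with a median log2 fold change of -1.14 against -0.01 over all tested genes. In 3 of the 6 (Mei1, Ankrd31 and Ccdc36) every Hnrnpl-null library was below every WT library, a pattern that 13.2% of all tested genes showed.

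**Figure D1:**
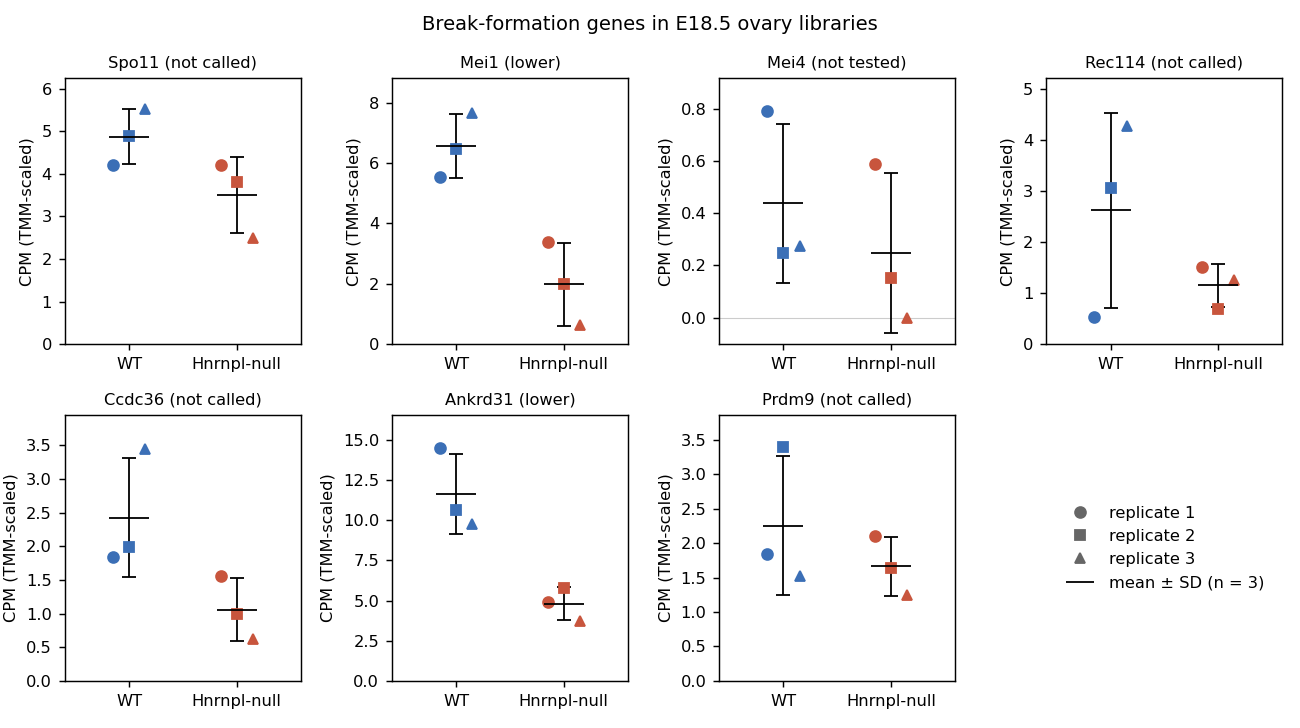
Levels of the 7 break-formation genes in each library, in CPM on TMM-scaled library sizes (vertical axis from about 0, scaled per gene), with WT in blue and Hnrnpl-null in red. Points are libraries and bars are mean ± SD (n = 3). Mei1, Ccdc36 and Ankrd31 have groups that do not overlap, and the other 4 do.

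Spo11 encodes the enzyme that cuts the DNA (chromosome 2, 172979842 to 172993576, mm10, plus strand). In replicates 1 to 3 it read 4.22, 4.89 and 5.51 CPM in WT, then 4.22, 3.81 and 2.50 CPM in Hnrnpl-null. The lowest WT library and the highest Hnrnpl-null library were level, and the group means were 4.87 ± 0.649 and 3.51 ± 0.896 CPM (SD, n = 3 each). Spo11 was at 75.4% of WT, with a 95% interval of 46.8% to 121%, and was not called (edgeR adjusted p = 0.55). The interval covers both no change and a fall to 46.8%, so these libraries do not settle which. The table counts all exons of Spo11 together and does not separate its splice forms.

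Mei1 encodes a protein that mice need for meiotic breaks (chromosome 15, 82070117 to 82126814, plus strand). It was counted at 42, 156 and 111 in WT and at 80, 52 and 2 in Hnrnpl-null, which corresponds to 5.53, 6.47 and 7.65 CPM against 3.37, 1.98 and 0.625 CPM. All 3 Hnrnpl-null libraries lay below the lowest WT library, and the lowest of them, Hnrnpl-null replicate 3, rests on 2 counts. The mean of Mei1 fell from 6.55 CPM (SD 1.061, n = 3) to 1.99 CPM (SD 1.37, n = 3). Its log2 fold change was -1.51 with an SE of 0.39 and an edgeR adjusted p of 0.047. That is 0.352 of WT (95% interval 0.195 to 0.634). Without Hnrnpl-null replicate 3 it was still called (log2 fold change -1.30, edgeR adjusted p = 0.033), but not once WT replicate 1, 2 or 3 or Hnrnpl-null replicate 2 had been left out (edgeR adjusted p of 0.073 to 0.18). Over 18 alternatives that kept a scaling over all genes, 12 called Mei1. Its adjusted p was 0.0037 to 0.18, other than on library totals alone, where it was 1.

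MEI4, REC114 and IHO1 assemble on chromosome axes before breaks form. Mei4 (chromosome 9, 81863670 to 82206007, plus strand) was barely detected, with counts of 6, 6 and 4 in WT and 14, 4 and 0 in Hnrnpl-null, and did not pass the filter. Its groups overlapped, with 16 counts in all in WT and 18 in Hnrnpl-null. The 0 in Hnrnpl-null replicate 3 allows up to 6 counts (3 steps of 2 counts, counting error only), or 1.87 CPM, which is above the 0.152 to 0.790 CPM of the other 5 libraries. Fitted without a filter, Mei4 was at 0.714 of WT (95% interval 0.0986 to 5.18), so a difference in Mei4 was not detectable at this depth.

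Rec114 (chromosome 9, 58652856 to 58741559, minus strand) read 0.527, 3.07 and 4.27 CPM in the WT libraries against 1.52, 0.685 and 1.25 CPM in the Hnrnpl-null ones. WT replicate 1, with 4 counts, was the lowest of all 6 libraries, and the other WT libraries were the highest 2. Rec114 was at 41.5% of WT, with an interval of 15.5% to 111%, and was not called (edgeR adjusted p = 0.33). Without WT replicates 1 and 3 in turn its log2 fold change of -1.27 became -1.69 and -0.75, and it was not called in either. Its last exon shares 24 bases with the exons of Nptn.

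Ccdc36 (chromosome 9, 108403633 to 108428482, minus strand), which the RefSeq gene table gives as Iho1, encodes the partner that links this machinery to the axis protein HORMAD1. WT libraries held 1.84, 1.99 and 3.45 CPM of it, and Hnrnpl-null libraries 1.56, 0.990 and 0.625 CPM. The groups did not overlap, though the nearest libraries were 1.84 and 1.56 CPM. Ccdc36 was at 47.4% of WT, with an interval of 21.0% to 107%, and was not called (edgeR adjusted p = 0.32).

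Ankrd31 encodes an ankyrin-repeat protein that binds REC114 (chromosome 13, 96748293 to 96909794, plus strand). It was the most highly counted of the 7, with 14.5, 10.6 and 9.79 CPM in the WT libraries and 4.89, 5.79 and 3.75 CPM in the Hnrnpl-null ones. Each WT library was above every Hnrnpl-null library. The mean of Ankrd31 fell from 11.6 CPM (SD 2.51, n = 3) to 4.81 CPM (SD 1.02, n = 3). Its log2 fold change was -1.20 with an SE of 0.25 and an edgeR adjusted p of 0.018. That is 0.437 of WT (95% interval 0.299 to 0.638). It was no longer called once WT replicate 1, WT replicate 2 or Hnrnpl-null replicate 1 had been left out (edgeR adjusted p of 0.062 to 0.077), and it was kept without both libraries richest in Rn45s (log2 fold change -0.93, edgeR adjusted p = 0.036). Over the same 18 alternatives 14 called Ankrd31. Its adjusted p was 0.0013 to 0.077, other than on library totals alone, where it was 1.

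Prdm9 encodes the histone methyltransferase with zinc fingers that sets hotspot positions (chromosome 17, 15543072 to 15564354, minus strand). WT libraries held 1.84, 3.40 and 1.52 CPM of it, and Hnrnpl-null libraries 2.11, 1.64 and 1.25 CPM. The groups overlapped, and WT replicate 2 alone was above all the others. Prdm9 was at 75.9% of WT, with a wide interval of 35.7% to 161%, and was not called (edgeR adjusted p = 0.73). Without WT replicate 2 its log2 fold change went from -0.40 to 0.05, so even the sign rests on that library.

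Per kilobase of exonic length, the order of levels among the genes was similar in both groups. In WT the order was Rec114 (2.97 ± 2.17 CPM per kb), Spo11 (2.78 ± 0.370), Ankrd31 (1.98 ± 0.428), Mei1 (1.61 ± 0.260), Ccdc36 (0.847 ± 0.309), Prdm9 (0.603 ± 0.269) and Mei4 (0.0698 ± 0.0486). Neighbours in that order had overlapping ranges over the 3 libraries, apart from Mei1 above Ccdc36 and Prdm9 above Mei4. In Hnrnpl-null, Spo11 was first at 1.999 ± 0.511 CPM per kb, followed by Rec114 at 1.30 ± 0.481, Ankrd31 at 0.819 ± 0.174 and Mei1 at 0.489 ± 0.337. Prdm9 came next at 0.445 ± 0.115, then Ccdc36 at 0.369 ± 0.164 and Mei4 at 0.0394 ± 0.0488 (SD, n = 3). There, Ccdc36 above Mei4 was the only pair of neighbours whose ranges did not overlap.

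Counts relative to Spo11 within a library need no scaling between libraries. The Spo11 counts used as divisors were 32, 118 and 80 (WT), then 100, 100 and 8 (Hnrnpl-null). Every ratio of the last library therefore rests on 8 Spo11 counts, and counting error was not estimated for any ratio. Mei1 had 1.31, 1.32 and 1.39 counts per Spo11 count in the WT libraries and 0.80, 0.520 and 0.250 in the Hnrnpl-null libraries. The ratio of 0.250 is 2 Mei1 counts over those 8, so how far it lies below the others is poorly fixed. Ankrd31 had 3.44, 2.17 and 1.77 counts per Spo11 count in WT and 1.16, 1.52 and 1.5 in Hnrnpl-null. Ccdc36 had 0.438, 0.407 and 0.625 in WT and 0.370, 0.260 and 0.250 in Hnrnpl-null. In these 3 genes all Hnrnpl-null ratios lay below all WT ratios, as they did in 2.47% of all other tested genes. An exact two-sided permutation test over libraries gave p = 0.10 for each, the smallest that 3 against 3 allows, and an adjusted p of 0.17 over the 5 ratios computed. For Rec114 and Prdm9 the groups overlapped, with mean ratios of 0.509 ± 0.341 and 0.469 ± 0.212 in WT and 0.347 ± 0.160 and 0.477 ± 0.0404 in Hnrnpl-null (exact permutation p = 0.70 and 0.80, adjusted p = 0.80 for both). This comparison was added after the levels had been seen.

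**Figure D2:**
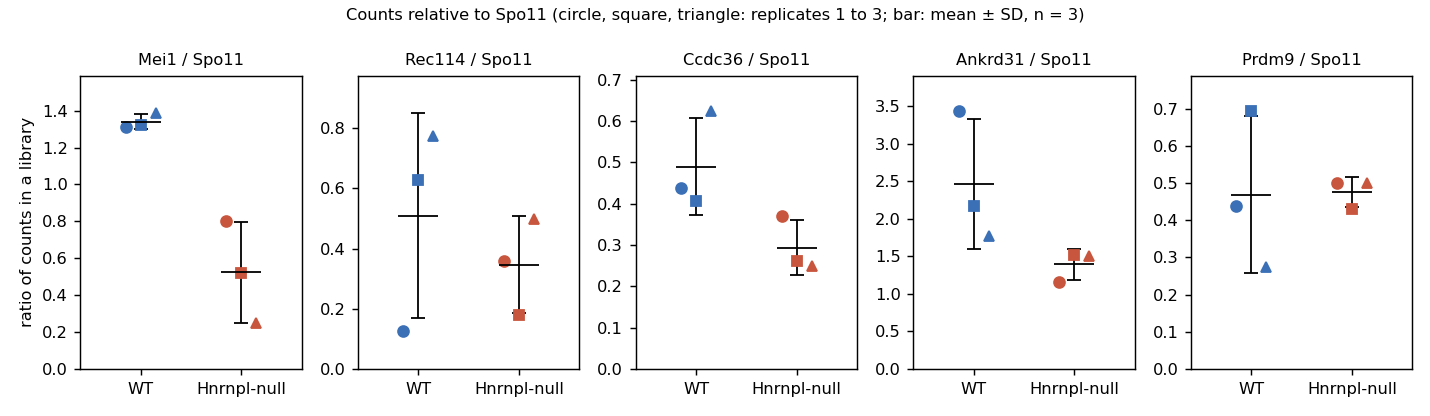
Counts of 5 genes divided by the Spo11 count of the same library (vertical axis from 0, scaled per gene), by group. Points are libraries and bars are mean ± SD (n = 3). Mei1 ratios lie between 1.31 and 1.39 in WT and between 0.250 and 0.80 in Hnrnpl-null, and those of Prdm9 overlap.

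Germ cell markers were lower in the same libraries. Of the 7 germ cell markers, 6 were called lower and Tex101 was not called, and their summed level was 171 to 201 CPM in WT and 88.7 to 111 CPM in Hnrnpl-null. Ddx4, a germ cell RNA helicase, was at 53.4% of WT and Dazl, a germ cell RNA-binding protein, at 56.2%. The break-forming genes were therefore also set against the summed Ddx4 and Dazl counts. Per 1000 such counts, Mei1 had 73.7, 84.4 and 85.3 counts in WT and 76.0, 48.8 and 12.7 in Hnrnpl-null. Ankrd31 had 193, 139 and 109 in WT and 110, 143 and 75.9 in Hnrnpl-null, and Spo11 had 56.1, 63.9 and 61.4 in WT and 95.1, 93.9 and 50.6 in Hnrnpl-null. The groups overlapped in all 7 genes. On this scale few genes had every Hnrnpl-null ratio below every WT ratio, namely 0.734% of all tested genes other than Ddx4 and Dazl.

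With Ddx4 and Dazl as the reference, 0 of the 6 tested genes were called lower or higher by edgeR, while 0.505% of all tested genes were called lower and 64.3% higher. Unadjusted, 0 of the 6 had an edgeR p below 0.05. The ratio to WT was 0.645 for Mei1 (95% interval 0.360 to 1.15) and 0.793 for Ankrd31 (0.514 to 1.22). For Spo11 and Prdm9 the sign turned, with ratios of 1.39 (0.832 to 2.32) and 1.37 (0.632 to 2.97). This reference moved the median log2 fold change of all genes from -0.01 to 0.85 and that of the 6 genes from -1.14 to -0.26. A change of reference shifts all genes by a similar amount. That all 6 genes lay below the median of all genes thus carries over from the main fit and is no separate result. Hnrnpl-null replicate 3 holds 158 reference counts against 570 to 1848 in the others, which limits its precision. Of these, 20 are Ddx4 and 138 are Dazl. The 2 genes differ there, at 6.25 CPM for Ddx4 and 43.1 CPM for Dazl, beside WT means of 22.6 and 57.8 CPM. The fit takes the reference counts as exact, so the intervals leave out their error.

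**Figure D3:**
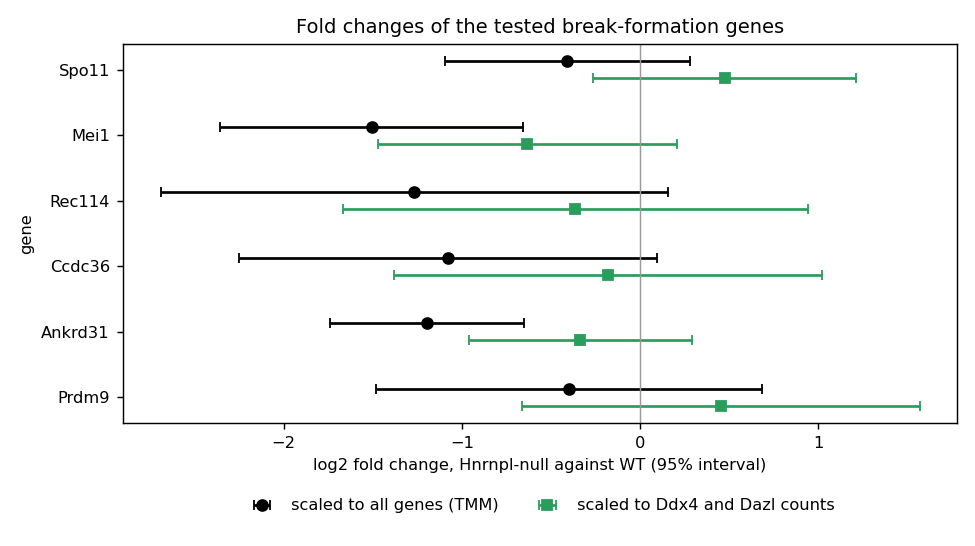
Log2 fold change of Hnrnpl-null against WT for the 6 tested genes (horizontal axis) with 95% intervals, scaled over all genes by TMM (black circles) or to the summed Ddx4 and Dazl counts (green squares). Over all genes the intervals of Mei1 and Ankrd31 lie below 0, and with Ddx4 and Dazl as the reference all 6 intervals include 0.

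Some markers of other cell types also differed between the groups. Of 9 leukocyte markers 7 were called higher, with ratios to WT from 3.42 (Ptprc) to 944 (Mpo). Csf1r and C1qa were not called, with log2 fold changes of 0.54 and -0.25. The sum of all 9 was 48.7 to 55.1 CPM over the WT libraries, against 625 to 780 CPM over the Hnrnpl-null ones. Mpo alone made up most of the Hnrnpl-null sums, at 523, 399 and 432 CPM in replicates 1 to 3. Of 6 stromal markers 3 were called higher, with sums of 4164 to 4484 CPM in WT and 6237 to 7036 CPM in Hnrnpl-null. The pregranulosa markers summed to 773 to 837 CPM in WT and 786 to 873 CPM in Hnrnpl-null, and edgeR called Kitl higher and 9 of 10 in neither direction. DESeq2 and limma-voom each called Kitl higher and Irx3 lower. Endothelial markers summed to 132 to 159 CPM in WT and 144 to 152 CPM in Hnrnpl-null. The 5 erythroid markers summed to 20.9 to 36.0 CPM in WT and 28.7 to 73.0 CPM in Hnrnpl-null. Of the 5 endothelial and 3 tested erythroid markers edgeR called 0. In each list 2 had an unadjusted edgeR p below 0.05, beside 2746 of all 14849 tested genes. DESeq2 called Cdh5 lower and Kdr and Slc4a1 higher, and limma-voom called those 3 and Alas2. No marker of these lists was at 0 in all 6 libraries, and their part in the levels of the break-forming genes was not tested.

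Genes that act with or after break formation were read from 3 lists of 26 genes, of which 25 were in the table and 24 were tested. Of the 24, 2 were called lower and 0 higher (median log2 fold change -0.14), beside the 1.79% and 2.67% of all genes. Among 9 tested genes of break control the 2 lower were Hormad1 and Zcwpw1, and 7 were not called (median -0.24). Hormad1, the axis protein that recruits IHO1, read 8.69, 8.46 and 9.85 CPM in the WT libraries and 3.204, 4.34 and 3.75 CPM in the Hnrnpl-null ones, with no overlap. It fell to 41.9% of WT (log2 fold change -1.25 ± 0.26, edgeR adjusted p = 0.016). Leaving out WT replicate 2, WT replicate 3 or Hnrnpl-null replicate 1 ended the call of Hormad1 (edgeR adjusted p of 0.066 to 0.080). With Ddx4 and Dazl as the reference its log2 fold change was -0.37, and it was not called (edgeR adjusted p = 0.30).

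Zcwpw1, a reader of the histone marks that PRDM9 writes, read 25.0, 19.7 and 18.47 CPM in the WT libraries and 10.2, 12.6 and 12.5 CPM in the Hnrnpl-null ones, again with no overlap. It fell to 55.7% of WT (log2 fold change -0.85 ± 0.18, edgeR adjusted p = 0.020), close to the share of Ddx4 and Dazl, and some of its exons overlap those of Pilra. Leaving out replicate 1 or 2 of either group ended the call of Zcwpw1 (edgeR adjusted p of 0.063 to 0.090), and with Ddx4 and Dazl as the reference its log2 fold change was 0.012. Trip13, an ATPase that removes HORMAD proteins from axes and also acts in mitosis, went the other way. It read 9.22, 6.47 and 7.58 CPM in the WT libraries and 11.05, 12.1 and 17.5 CPM in the Hnrnpl-null ones, and was not called by edgeR (adjusted p = 0.092) but was called higher by limma-voom. Top6bl, the partner subunit of SPO11 and listed as Gm960, had mean levels of 1.27 ± 0.581 CPM (WT) and 1.18 ± 0.491 CPM (Hnrnpl-null), with no call.

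Genes of break-end processing and strand exchange were not called by edgeR. Of 5 end-processing genes (Mre11a, Rad50, Nbn, Rbbp8 and Exo1) edgeR and DESeq2 called 0 and limma-voom called Rad50 lower (median log2 fold change 0.21). Of 10 tested strand exchange genes edgeR called 0, and DESeq2 and limma-voom each called Hsf2bp lower (median -0.16). An unadjusted edgeR p below 0.05 was found for 1 end-processing gene and 2 strand exchange genes, beside 2746 of all 14849 tested genes. Dmc1, the meiotic strand exchange protein, had a ratio to WT of 1.18 with an interval of 0.543 to 2.58. Hsf2bp, a meiotic partner of BRCA2, read 6.06, 5.56 and 6.20 CPM in the WT libraries and 3.75, 1.94 and 1.25 CPM in the Hnrnpl-null ones (edgeR adjusted p = 0.088). Over the 3 lists, every Hnrnpl-null library was below every WT library in 6 of the 24 tested genes (Hormad1, Zcwpw1, Hells, Hsf2bp, Meiob and Brca2), beside the 13.2% of all tested genes, and Trip13 alone was higher in this way, beside 12.4%. Hells, a chromatin remodeller that works with PRDM9, was not called (edgeR adjusted p = 0.090). Whether Mei1 and Ankrd31 fell by more than these lists was not tested.

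**Figure D4:**
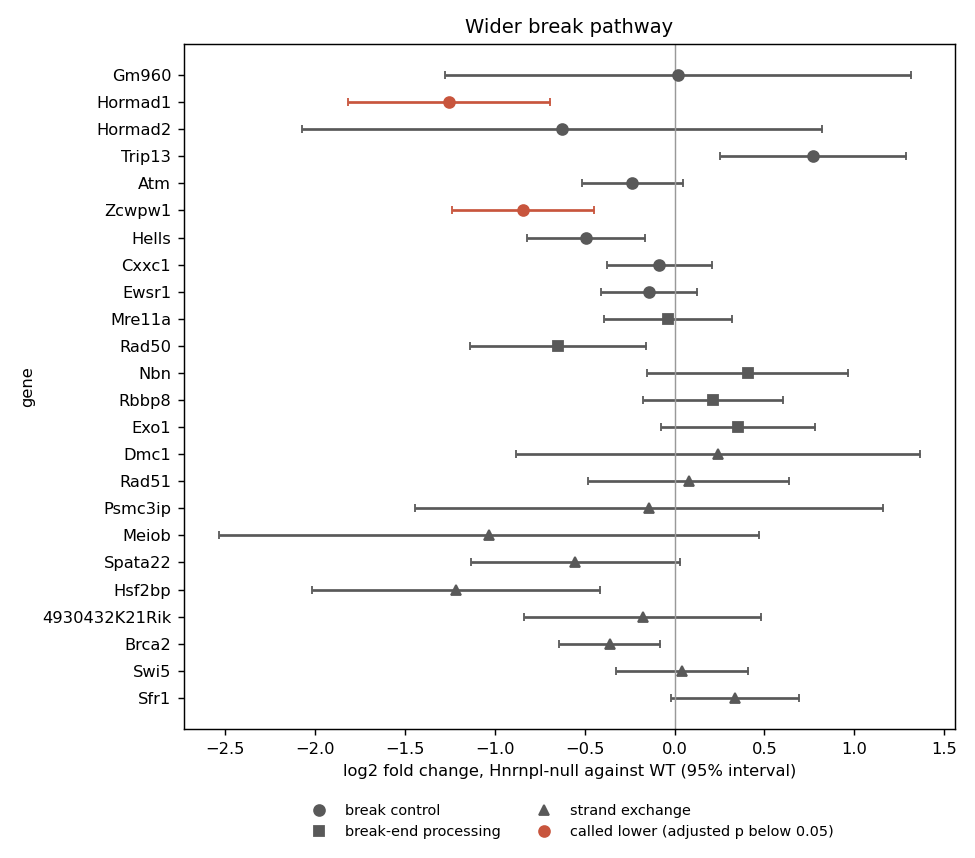
Log2 fold change of Hnrnpl-null against WT with 95% intervals (horizontal axis) for the 24 tested genes of break control, break-end processing and strand exchange. Hormad1 and Zcwpw1, in red, were called lower at an adjusted p below 0.05, and no gene was called higher.

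Genes whose pattern over the 6 libraries was most like that of each member were found by the root mean square difference between mean-centred log2 CPM profiles, among 9928 or 9929 named genes at a mean of at least 5 CPM. For Spo11 they were Nup210l and Dhx34, at 0.056 and 0.059, and for Prdm9 Dhodh and Zscan26, at 0.15 and 0.17. For Ankrd31 they were Ehd3 and Ddx25, at 0.16 and 0.18, and for Ccdc36 Rbm44 and Airn, at 0.14 and 0.16. Mei1 was nearest to Dysf and Mmrn2, at 0.21 and 0.25. Rec114 had no close match, with Ddx28 nearest at 0.55. With 6 libraries such likeness is a description only.

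The promoters of Mei1 and Ankrd31 are shown because these genes were called, and that of Prdm9 because it holds the motif of the meiotic entry factor STRA8 while the gene was not called. Of the 7 genes, 6 had a promoter in the RefSeq table of GRCm38.p6 (250 bases before to 50 after a transcript start), and that of Prdm9 was chosen after its motifs were seen. Capitals mark matches, on either strand, to the STRA8 motif CNCCTCAG, the E-box CACGTG or the E2F motif TTCCCGC. The Ankrd31 window is chr13:96748043-96748342 on the plus strand, and its start is that of the gene in the deposited table. The Mei1 window is chr15:82082226-82082525 on the plus strand, and its start is an internal exon start, 12359 bases downstream of the first base of the gene in the deposited table. The Prdm9 window is chr17:15564305-15564604 on the minus strand.
Ankrd31: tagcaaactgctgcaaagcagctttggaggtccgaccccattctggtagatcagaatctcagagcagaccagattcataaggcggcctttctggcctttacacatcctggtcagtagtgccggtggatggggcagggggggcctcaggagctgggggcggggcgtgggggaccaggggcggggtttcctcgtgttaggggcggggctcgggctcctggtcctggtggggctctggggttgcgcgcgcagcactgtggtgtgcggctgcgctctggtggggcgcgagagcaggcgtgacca
Mei1: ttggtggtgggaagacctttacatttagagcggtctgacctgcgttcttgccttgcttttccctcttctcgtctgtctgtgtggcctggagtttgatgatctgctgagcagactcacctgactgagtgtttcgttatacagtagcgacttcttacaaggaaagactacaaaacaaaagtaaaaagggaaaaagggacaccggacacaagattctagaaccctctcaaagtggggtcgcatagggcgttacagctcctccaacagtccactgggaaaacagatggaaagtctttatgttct
Prdm9: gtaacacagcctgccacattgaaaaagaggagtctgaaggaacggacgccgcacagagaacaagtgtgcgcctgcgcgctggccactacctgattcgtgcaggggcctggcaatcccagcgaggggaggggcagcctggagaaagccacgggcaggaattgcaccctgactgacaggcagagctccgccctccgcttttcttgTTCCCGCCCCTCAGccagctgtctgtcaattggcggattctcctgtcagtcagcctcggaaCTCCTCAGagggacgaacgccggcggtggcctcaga

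Neither the Ankrd31 nor the Mei1 window held any of the 3 motifs. Prdm9 held the STRA8 motif at -41 and 14 bases from its start and the E2F motif at -47, which shares 1 base with the first STRA8 match. The Rec114 window held an E-box at -19 and an E2F motif at 26, and the windows of Mei4, Ccdc36 and a downstream start of Prdm9 held none. The start of the Ccdc36 window lies 3344 bases upstream of the gene in the deposited table and is no exon start there. Of all 32851 promoters in the table, 7.94% held the STRA8 motif, 7.15% the E-box and 4.60% the E2F motif. These are matches of letters in a short window.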

How the data were processed

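RNA was sequenced from 6 ovary libraries, 3 per genotype. The values are raw counts per gene in a table that the authors deposited, with exon coordinates and exonic lengths, laid out as by featureCounts per the file headers. The submitters' processing notes name mm10, featureCounts 2.0.6, HISAT2 2.2.1 and STAR 2.7.11a, without roles. The sources used here do not state the annotation, strand setting or handling of multi-mapping reads. Without strand, reads of overlapping genes cannot be told apart.

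The main test was edgeR 4.0.16 under R 4.3.3 (filterByExpr, which asks for about 10 counts, TMM, glmQLFit, glmQLFTest, two-sided, Benjamini-Hochberg over all tested genes), with genotype as the only term. Standard errors and 95% intervals were derived from its F statistic. The pipeline was also run on simulated counts that lacked the excess of even values, and its outcome is not used here. Alternatives were DESeq2 1.42.0, limma-voom (limma 3.58.1), other scalings and filters, halved counts, the replicate number as a block, and leaving out libraries. CPM per kb used the deposited exonic length.

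The genes named were the 7 members, called genes of the wider lists, and the 2 nearest patterns per member. One gene that this rule names is not reported here. Other genes were chosen after their values were seen, among them Trip13, Hsf2bp and Hells. The members and all lists were chosen with earlier results of these data known. 2 listed names were matched through RefSeq synonyms, and Zcwpw2 was not matched. Replicates of a group differed beyond counting noise, by chi-square per degree of freedom on halved counts. It was 40.1 to 87.4 for pairs that held WT replicate 1 or Hnrnpl-null replicate 3. For the remaining pairs it was 6.16 (WT) and 5.21 (Hnrnpl-null). Splicing was not analysed.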

Additional observations from a re-analysis of the deposited data

How the results depend on the processing

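All 6 fold changes kept their sign under each of the 18 alternatives scaled over all genes, other than that of Prdm9 without WT replicate 2. Leaving out 1 library gave a log2 fold change of -2.02 to -1.30 for Mei1, -1.35 to -1.02 for Ankrd31 and -0.62 to 0.054 for Prdm9. The same fits called 0 to 2 members lower, 0 to 3 genes of the wider lists lower, 104 to 321 of all genes lower and 145 to 532 higher, beside 2, 2, 266 and 397 with all libraries. On library totals alone the log2 fold changes were -1.45 for Mei1 and -1.04 for Ankrd31 with an adjusted p of 1 for both, 0 members and 0 wider genes were called lower, and 1 gene was called lower and 3 higher over the whole table. The cause was not tested. Over all genes DESeq2 called 443 lower and 643 higher, limma-voom 498 and 775, and edgeR with no filter on low counts 471 and 633. Of the wider lists limma-voom and the unfiltered fit each called 4 lower and 1 higher. With Ddx4 and Dazl as the reference the log2 fold changes were 0.47 for Spo11, 0.45 for Prdm9, -0.63 for Mei1, -0.33 for Ankrd31, -0.37 for Hormad1 and 0.012 for Zcwpw1, and 0 members and neither Hormad1 nor Zcwpw1 were called lower.

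With the replicate number as a replicate block the Mei1 log2 fold change was -1.62 (edgeR adjusted p = 0.074), and 1 member was called lower in place of 2. The numbers were not taken to pair the samples. Deviations of same-numbered libraries from their group means correlated at -0.12, 0.088 and -0.089, and Hnrnpl-null replicate 3 correlated best with WT replicate 1 (0.15). No other call of a member changed under the block. Depth limits Mei4 and every value of Hnrnpl-null replicate 3, where 2 counts are worth 0.625 CPM.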
